A study of Homo sapiens with 6 samples.

Results

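The cytosolic ribosomal proteins of Ju77 cells were examined through 75 genes with 124 array probes, out of 20044 named genes and 47225 probes in all. A probe belonged to the set by its gene symbol alone, RPL or RPS with a number, or RPLP1 and RPLP2, with the RPS6 kinases left out, a rule that reads no intensity. Ju77 is a human malignant mesothelioma cell line. The groups were 3 arrays of Ju77 cells resistant to ADI-PEG20 and 3 arrays of parental Ju77 cells, numbered as replicates. ADI-PEG20 is a pegylated arginine deiminase, which breaks down arginine outside the cell. Both lines were plated and gave their RNA a day later, which was turned into biotin-labelled cRNA and measured on Illumina expression arrays. The labels do not say whether replicates were separate cultures, whether the resistant line is 1 clone, or whether drug was present when RNA was taken. What belongs to resistance and what to other differences of the lines cannot be told apart, and p-values measure the spread between samples, which may be technical.

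The cytosolic ribosome is built from a small subunit, which reads the mRNA, and a large subunit, which joins amino acids. Most of its proteins are needed in equal numbers, and ribosomal protein mRNAs are among the most abundant of a growing cell. Most of these mRNAs begin with a C and an unbroken run of pyrimidines, the TOP start, through which mTORC1, a kinase that senses arginine and other amino acids, controls their translation. An array measures the amount of mRNA and not its translation.

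The TOP start can be read in the genome at the start site of each gene. RefSeq windows (GRCh38.p14) were matched for 63 of the 75 member genes. A run was counted where a C lay within 5 bases of the annotated start and at least 4 further C or T followed it without a break, on the gene's strand. Of the member genes with a window 51 (81.0%) had such a run, against 6886 of 27305 genes (25.2%) among all genes with a window. The 7 members taken as copies of another ribosomal protein (RPL3L, RPL10L, RPL7L1, RPL22L1, RPL26L1, RPL39L and RPS27L) had windows for 5 genes, too few for a share. RPL22L1 had a run, and RPL26L1, RPL7L1, RPL10L and RPS27L did not. Among the member genes called different below, 7 of 11 with a window had a run, against 42 of 49 of the tested member genes that were not called. The following windows show 30 bases before and 15 from the annotated start, 5′ to 3′, with the pyrimidine run in capitals. They were chosen to set copies beside their partners, because the largest difference in the set was that of a copy, and to show 3 genes called higher. Not shown are RPL22L1, a copy with a run, and RPL6, called lower below and without a run.
RPL26L1: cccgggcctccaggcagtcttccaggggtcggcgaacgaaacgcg
RPL26: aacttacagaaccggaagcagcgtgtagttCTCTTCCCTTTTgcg
RPL39: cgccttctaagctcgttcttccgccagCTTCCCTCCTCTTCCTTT
RPS27L: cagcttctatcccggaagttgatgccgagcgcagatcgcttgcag
RPS27: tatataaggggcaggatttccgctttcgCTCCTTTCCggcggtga
RPL22: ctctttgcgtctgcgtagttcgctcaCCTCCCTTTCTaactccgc
RPL28: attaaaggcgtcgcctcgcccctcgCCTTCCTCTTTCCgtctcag
RPL36: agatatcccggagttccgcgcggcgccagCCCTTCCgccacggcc
These windows lie at chr5:172958699-172958743 on the plus strand for RPL26L1, chr17:8383179-8383223 on the minus strand for RPL26 and chrX:119791616-119791660 on the minus strand for RPL39. They lie at chr15:63157463-63157507 on the minus strand for RPS27L, chr1:153990732-153990776 on the plus strand for RPS27 and chr1:6199581-6199625 on the minus strand for RPL22. For RPL28 and RPL36 they are chr19:55385902-55385946 and chr19:5690265-5690309, both on the plus strand. The run of RPL26 is 12 bases long and begins at the annotated start itself, whereas neither of the 2 windows listed for RPL26L1 holds one. A match describes these letters, and its absence says only that this window lacks it.

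Values below are log2 intensities after background correction and quantile normalisation, and differences are resistant minus parental on that scale. A probe was detected where its detection p-value was under 0.05. Between 19024 and 20113 probes were detected on the resistant arrays and between 19355 and 19900 on the parental arrays, and the mean probe intensity was 431 ± 20.1 on the resistant arrays against 480 ± 16.1 on the parental arrays (SD, n = 3). Of 11 mesothelial markers 8 were detected on all resistant and 9 on all parental arrays, with UPK3B and KRT5 not detected on all arrays of either group. Of 9 tested on their brightest probe, 1 was higher and 3 were lower in resistant cells, beside 20.9% higher and 21.4% lower among all genes. CALB2 (calretinin) differed by 2.74 (limma adjusted p = 4.84e-06). PDPN (podoplanin), detected on 1 resistant and 3 parental arrays, differed by -2.38 (limma adjusted p = 9.91e-05). LRRN4 and BNC1 were the other lower ones, at -0.79 and -0.61. The part of these marker differences in the results below was not tested. Of 6 leukocyte markers with a probe only CD68 was detected on all arrays, and no endothelial or fibroblast marker of 3 each. The number of arrays limits the precision of all values.

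Most transcripts of the cytosolic ribosomal proteins differed little between resistant and parental cells, and 1 copy, RPL26L1, was far lower in resistant cells on 1 of its 2 probes. Of the 124 probes 116, for 71 genes, were kept because all 3 arrays of a group detected them, and each of these was in fact detected on all 6 arrays. Past an adjusted p of 0.05 (limma, Benjamini-Hochberg over all 17843 kept probes) were 14 member probes or 12.1%, with 7 higher in resistant than in parental cells and 7 lower. Over all kept probes 38.8% were called, 3326 higher (18.6%) and 3599 lower (20.2%). The member split was 2 higher and 19 lower under scaling to a common array median, where the median difference of all probes was -0.15 in place of -0.01, and 7 and 13 when they were scaled to a common summed intensity. The median log2 difference of the members was 0.01, against -0.01 over all kept probes, and the median size of the difference regardless of sign was 0.10 for members against 0.26 for all. The largest difference apart from that of RPL26L1 was 0.64. Groups did not overlap for 42 of the 116 member probes, beside 51.5% of all kept probes. As these are bulk samples, fewer cells that express a gene and less RNA per cell cannot be told apart.

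The precision was enough to bound most members. For 101 of the 116 probes the 95% interval of the difference lay within 1.5-fold in either direction, beside 9900 of all 17843 kept probes. At a mean level of 13 or more this held for 64 of 64 member probes and 390 of 414 kept probes. Below 13 it held for 37 of 52 and 9510 of 17429. The median spread within groups was 0.07 (SD on the log2 scale) for members, against 0.13 over all kept probes. Leaving out 1 array at a time gave between 4 and 8 higher and between 4 and 8 lower calls. The higher calls numbered 4 without resistant replicate 2, without parental replicate 1 or without parental replicate 2, and the lower calls 4 without parental replicate 3.

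**Figure D1:**
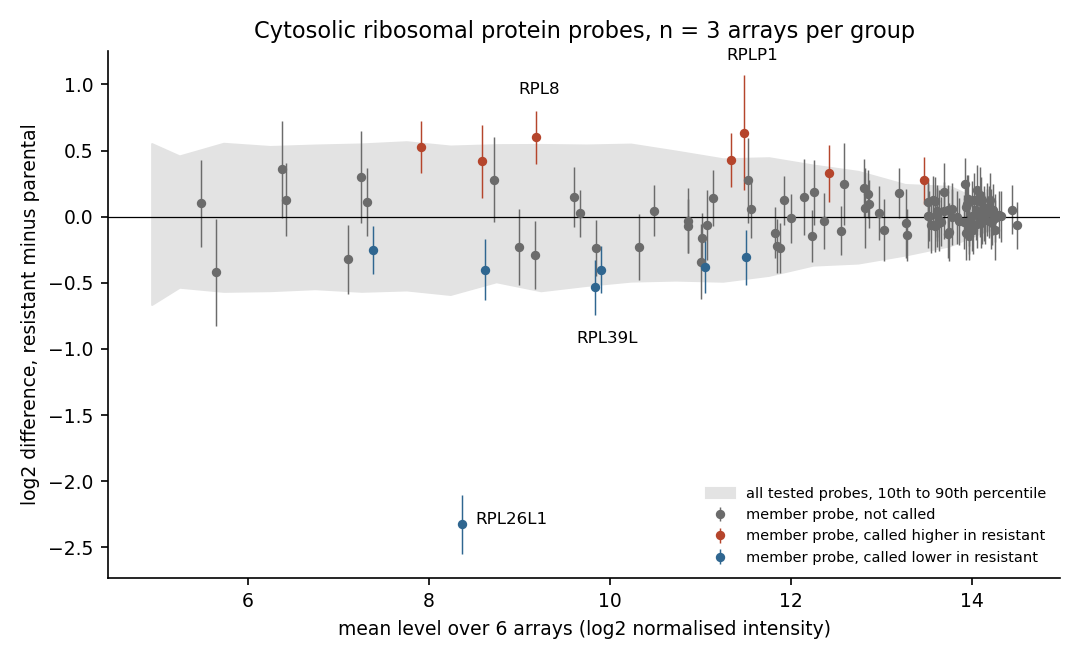
Each point is 1 of the 116 kept ribosomal protein probes, with its mean level over 6 arrays (log2 normalised intensity) on the x axis and its log2 difference, resistant minus parental, with a 95% interval on the y axis. The grey band spans the 10th to the 90th percentile of all kept probes at that level, and the probe of RPL26L1 at -2.33 lies far outside it while most members cluster near 0 above a level of 13.

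Ribosomal protein probes are bright, and the share called differed with level. Members had a median level of 13.5, against 7.43 over all kept probes, and made up 41 of the 200 brightest probes. Of the 64 member probes at a level of 13 or more 1 was called (1.56%), against 12.3% of the 414 kept probes there. Below 13 the count was 13 of 52 (25.0%), against 39.4% of all kept probes. Under a level of 9 it was 5 of 14 (35.7%), against 37.4%, and a difference between these shares was not tested. The brightest member probe reached an intensity of 23992 on a resistant array and 24209 on a parental array, and the brightest probe of any kind 25231 and 25764. Whether signals near that top are compressed was not tested. After quantile normalisation the values at the top of each array are set equal across arrays, which can also hold bright probes together.

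**Figure D2:**
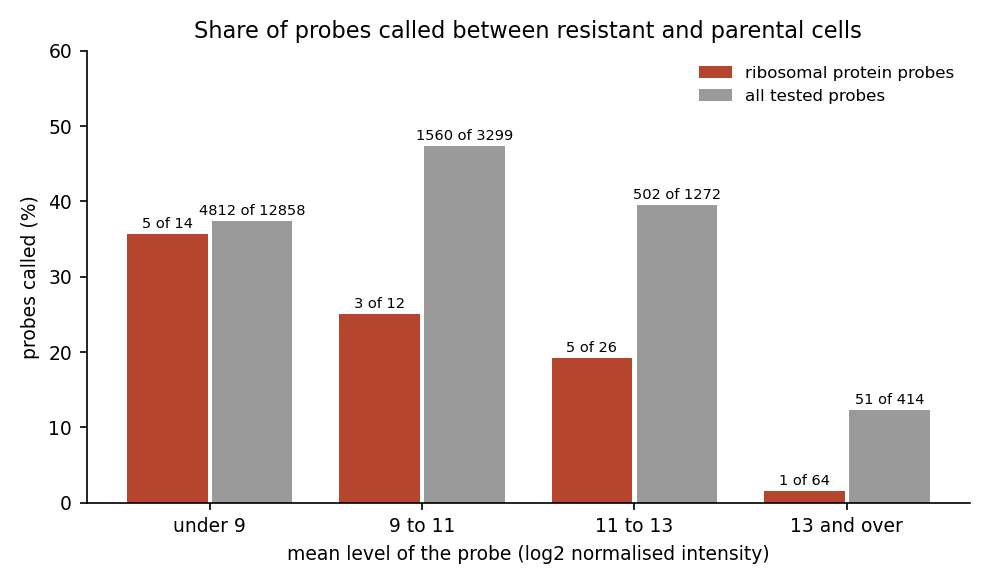
Bars give the percentage of probes called between resistant and parental cells within 4 ranges of mean level (log2 normalised intensity), for ribosomal protein probes and for all kept probes, with the counts above. The member share was 1.56% at a level of 13 and over and 35.7% under 9.

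The intensities before normalisation gave the ribosomal proteins a slightly larger place on the resistant arrays. The 124 probes took 5.47%, 5.63% and 5.27% of the summed intensity of the resistant arrays, against 5.12%, 5.26% and 5.18% on the parental arrays. All 3 resistant arrays were above all 3 parental arrays, the nearest pair being 5.27% and 5.26%. After background subtraction the shares averaged 7.23% ± 0.27 on resistant and 6.75% ± 0.11 on parental arrays (SD, n = 3). The summed member intensity itself, which moves with the overall brightness of an array, was 1058080 to 1171410 on resistant and 1142470 to 1220600 on parental arrays. Cyclic loess put the median log2 difference of the members 0.09 above that of all probes and the 3 scalings by 1 factor per array put it 0.11 above, whereas quantile normalisation put it 0.02 above.

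The small subunit, with 44 kept probes, had 1 call, and the large subunit had 13 calls among 72 kept probes (18.1%, against 38.8% of all probes). The small subunit call was RPS26, which lines the mRNA exit channel. Its dimmer probe (ILMN_1755664) had 7.29, 7.26 and 7.22 in resistant and 7.45, 7.53 and 7.55 in parental cells, a difference of -0.25 (SE 0.08, limma adjusted p = 0.0357). The groups were separate but close, and the call was lost without any one of the 6 arrays, with adjusted p between 0.0552 and 0.110. The brighter RPS26 probe gave -0.14 (adjusted p = 0.213).

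Proteins that other pathways use were among those with small differences. RPS6, the substrate of the S6 kinases below mTORC1, had 14.21, 14.30 and 14.11 in resistant and 14.40, 14.17 and 14.36 in parental cells on its brighter probe, with overlapping groups. The difference was -0.10 with an interval from -0.33 to 0.12 (limma adjusted p = 0.438). RPL5 and RPL11, which bind and hold MDM2 when ribosome assembly fails, gave 0.03 for RPL5 (interval -0.17 to 0.23) and, for the 2 probes of RPL11, -0.04 (interval -0.24 to 0.15) and 0.00 (interval -0.26 to 0.27). RPL23, another MDM2 partner, gave -0.10 (interval -0.34 to 0.13). RPS19 and RPS14, whose loss causes failure of red cell production in people, gave 0.03 for RPS19 (interval -0.15 to 0.21) and -0.08 for the brighter RPS14 probe (interval -0.28 to 0.12). RPS3, also a DNA repair factor, gave 0.05 (interval -0.17 to 0.26), and RPL13A, part of a complex that silences inflammatory mRNAs, gave 0.22 (interval -0.00 to 0.44, limma adjusted p = 0.104). RPSA, RPLP0 and RPS27A were not analysed here.

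The stalk of the large subunit, where the elongation factors dock, had 1 call among 6 kept probes of RPLP1, RPLP2 and RPL12 (16.7%, against 38.8% of all kept probes). RPLP2 gave 0.00 (interval -0.19 to 0.19). One probe of RPLP1 (ILMN_1689725) had 12.26, 11.66 and 11.47 in resistant and 11.09, 11.26 and 11.13 in parental cells, a difference of 0.64 (SE 0.19, 1.55-fold, limma adjusted p = 0.0304). Resistant replicate 1 stood well above the other arrays, and without it the difference was 0.41. The call was lost without any one of the parental replicates, with adjusted p up to 0.0836. It was also lost under median scaling (difference 0.45, limma adjusted p = 0.0947). The other 2 RPLP1 probes, both brighter, gave 0.05 each and were not called.

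Among higher calls, RPL8, which lies near the peptide-joining centre, had 9.59, 9.48 and 9.38 in resistant and 8.85, 8.88 and 8.91 in parental cells on its dimmer probe, a difference of 0.60 (SE 0.09, 1.51-fold, limma adjusted p = 0.00136). The brighter RPL8 probe gave 0.19 and was not called (adjusted p = 0.159). RPL28, a large subunit protein with 1 probe, had 8.11, 8.14 and 8.27 in resistant and 7.71, 7.64 and 7.59 in parental cells, a difference of 0.53 (SE 0.09, 1.44-fold, limma adjusted p = 0.00243). The groups were well apart for both. The RPL28 probe was dim for the set, at a mean level of 7.91 beside a member median of 13.5. There was no other RPL28 probe to compare. RPL22, which also binds folded RNAs outside the ribosome, had 11.56, 11.45 and 11.62 in resistant and 11.09, 11.06 and 11.20 in parental cells. Its difference was 0.43 (SE 0.09, 1.35-fold, limma adjusted p = 0.00670), and the call was lost under median scaling (difference 0.23, adjusted p = 0.107).

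RPL36 was the only gene with several kept probes whose probes were all called. Its bright probe had 13.57, 13.66 and 13.59 in resistant and 13.34, 13.33 and 13.32 in parental cells (difference 0.28, SE 0.08, limma adjusted p = 0.0243). Its dim probe had 8.60, 8.87 and 8.92 in resistant and 8.26, 8.34 and 8.54 in parental cells (difference 0.42, SE 0.12, limma adjusted p = 0.0249). Groups were separate on both probes. The calls were fragile: that of the bright probe was lost without each array except resistant replicate 1 (adjusted p up to 0.0912), and that of the dim probe without resistant replicate 2 or 3 or parental replicate 1 or 2 (adjusted p up to 0.0859). RPL7A, an early-assembling large subunit protein, had 12.56, 12.69 and 12.50 in resistant and 12.18, 12.23 and 12.36 in parental cells (difference 0.33, SE 0.09, limma adjusted p = 0.0247). That call was lost without resistant replicate 2 or parental replicate 1 or 2 (adjusted p up to 0.0873). Under median scaling the RPL7A call was also lost (difference 0.20, limma adjusted p = 0.163). So were the RPL36 calls, with adjusted p = 0.0803 on the bright and 0.166 on the dim probe.

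Among lower calls, RPL6, a large subunit protein, had 9.73, 9.68 and 9.70 in resistant and 10.06, 10.12 and 10.14 in parental cells on its dimmest probe, a difference of -0.40 (SE 0.08, limma adjusted p = 0.00501). Its 2 bright probes gave -0.12 and -0.01, neither called. RPL17, which lines the tunnel for the growing peptide, had 10.84, 10.85 and 10.88 in resistant and 11.25, 11.14 and 11.33 in parental cells on its dimmest probe (difference -0.38, SE 0.09, limma adjusted p = 0.00970), beside -0.13 and -0.03 on its brighter ones. RPL34 had 8.49, 8.53 and 8.24 in resistant and 8.76, 8.87 and 8.83 in parental cells on its dimmer probe (difference -0.40, SE 0.10, limma adjusted p = 0.0157), and -0.03 on its brighter one. For these genes the calls thus rest on the dim probe. The RPL34 call was lost without parental replicate 3 (adjusted p = 0.0506). RPL36A had 11.46, 11.33 and 11.26 in resistant and 11.65, 11.60 and 11.72 in parental cells (difference -0.31, SE 0.09, limma adjusted p = 0.0277), a call lost without resistant replicate 2 or 3 or parental replicate 1 or 3 (adjusted p up to 0.0935).

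**Figure D3:**
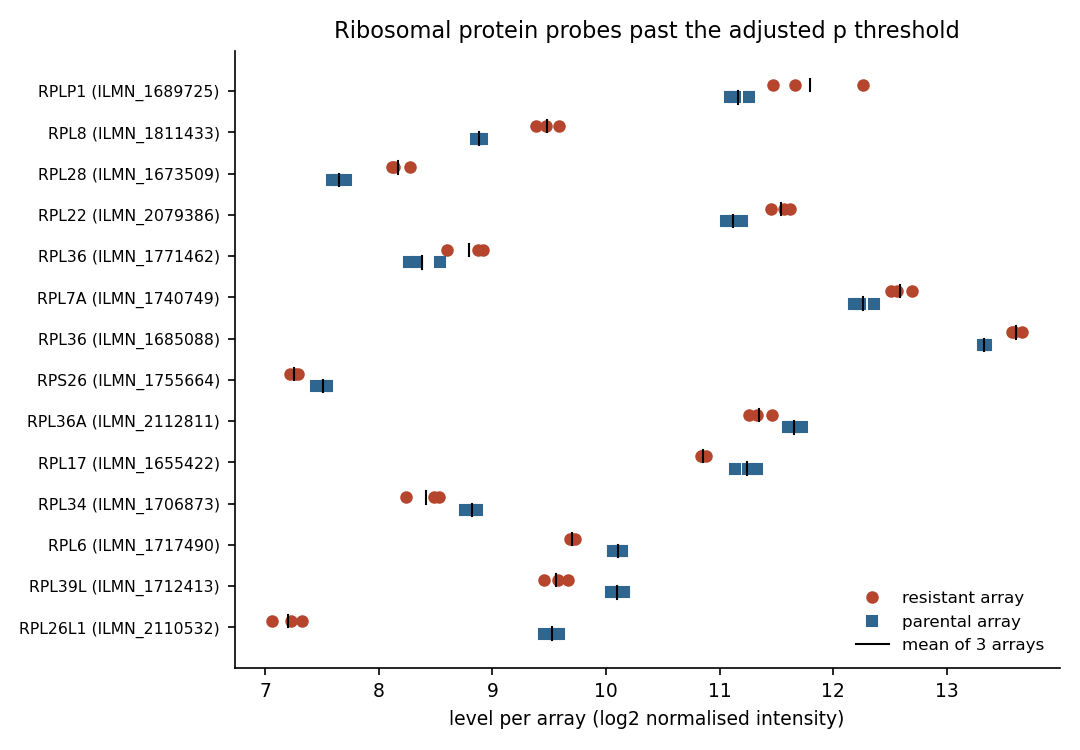
Levels (log2 normalised intensity) of the 14 called ribosomal protein probes on each resistant array (circles) and each parental array (squares), with the mean of 3 arrays as a tick, ordered by difference from RPLP1 at 0.64 to RPL26L1 at -2.33. Groups do not overlap for any of them, and the gap is widest for RPL26L1.

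Probes of the same gene often fell on different sides of the threshold. Of 33 genes with several kept probes 24 had no call, 8 had some probes called and others not, 1 had all called and none had calls in opposite directions. Of the 14 called probes 8 were not the brightest of their gene. Taken by the brightest probe of each gene, 4 of 71 genes were higher and 2 lower (8.45%, against 42.3% of all 10672 genes by the same rule in the same fit, 20.9% higher and 21.4% lower). Groups did not overlap for 25 of these 71 probes, beside 56.0% of all genes. Ribosomal protein genes have many processed pseudogenes, and whether a probe also binds their transcripts was not tested.

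The copies gave the largest difference of the set. RPL26L1, a near copy of RPL26, had 7.06, 7.32 and 7.22 in resistant and 9.58, 9.45 and 9.55 in parental cells on its brighter probe (ILMN_2110532), and the groups lay far apart. The difference was -2.33 (SE 0.10, interval -2.55 to -2.10), 5.02-fold lower, with a limma adjusted p of 3.84e-06, and 43 of all 17843 kept probes were lower still. In intensity before any correction it had 234, 234 and 236 in resistant and 936, 836 and 961 in parental cells. The call held when any 1 array was left out, with differences from -2.39 to -2.26. The second RPL26L1 probe (ILMN_1776586) was dim, at 5.58, 5.23 and 5.77 in resistant and 5.50, 5.32 and 5.46 in parental cells, and gave 0.10 with an interval from -0.23 to 0.43. It was detected on all 3 resistant and all 3 parental arrays. Its intensities were 130 to 150 on resistant and 143 to 155 on parental arrays. The member probes left out by the filter reached 150 and 146. Whether this dim probe could show a fall was not tested. The 2 probes thus differed, and the difference of -2.33 rests on 1 of them. RPL26 itself had 13.51, 13.55 and 13.48 in resistant and 13.30, 13.64 and 13.58 in parental cells, a difference of 0.01 (interval -0.24 to 0.25).

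RPL26L1 lies on chromosome 5, and its neighbours, examined after its value was seen, moved less. Of the 10 nearest measured genes in the GRCh38.p14 gene order, 5 on each side, 5 were lower and 1 higher. Among all genes by brightest probe 21.4% were lower and 20.9% higher. Over the whole of chromosome 5, 205 of 639 kept probes were lower and 75 higher, with a median difference of -0.17. Whether the neighbours depart from these shares was not tested. The differences of the 10 neighbours ran from -0.82 for STC2, a secreted glycoprotein induced by stress, to 0.68 for SH3PXD2B, a scaffold of matrix-degrading cell protrusions.

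RPL39L, a copy of RPL39 prominent in male germ cells and some tumours, was lower on 1 of its 2 probes. That probe (ILMN_1712413) had 9.66, 9.45 and 9.57 in resistant and 10.04, 10.08 and 10.16 in parental cells, a difference of -0.53 (SE 0.09, 1.45-fold, limma adjusted p = 0.00285). The brighter one had 10.98, 10.93 and 10.57 in resistant and 11.08, 11.25 and 11.18 in parental cells, a difference of -0.34 (limma adjusted p = 0.0607). This value was -0.21 without resistant replicate 3, and it passed the threshold in 11 of 21 alternative settings. Both probes thus had separate groups in the same direction. RPL39 had 14.12, 14.04 and 13.98 in resistant and 13.71, 13.88 and 13.82 in parental cells, a difference of 0.24 that missed the threshold (limma adjusted p = 0.0580).

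RPS27L, a copy of RPS27 that p53 induces, had 14.19, 14.19 and 14.11 in resistant and 13.87, 14.10 and 14.02 in parental cells. Its groups did not overlap but touched closely, and the difference was 0.16 (interval -0.04 to 0.37, limma adjusted p = 0.185). The brightest RPS27 probe gave -0.02 (interval -0.20 to 0.16). Its dimmer probes gave -0.03 (interval -0.22 to 0.15) and 0.18 (interval -0.06 to 0.43), the last close to the 0.16 of RPS27L. RPL7L1, a relative of RPL7 that acts in ribosome assembly, gave -0.01 on its brighter probe (interval -0.20 to 0.17) and -0.23 on the other (interval -0.48 to 0.02), and RPL7 gave 0.27 (interval -0.05 to 0.59).

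Whether a copy changed relative to its partner was tested on each array as the log2 difference between the brightest probes of both, which does not measure their relative abundance. With 3 arrays against 3 the exact two-sided permutation test cannot go below p = 0.1, so none of the 4 measurable pairs could pass the threshold. RPL26L1 minus RPL26 was -6.45, -6.23 and -6.25 on resistant and -3.72, -4.18 and -4.03 on parental arrays, a change of -2.34 (exact permutation p = 0.1). RPL39L minus RPL39 was -3.13, -3.11 and -3.41 on resistant and -2.62, -2.63 and -2.64 on parental arrays, a change of -0.58 (exact permutation p = 0.1). In both pairs all resistant arrays were below all parental arrays. RPS27L minus RPS27 changed by 0.19 (exact permutation p = 0.1) and RPL7L1 minus RPL7 by -0.29 (exact permutation p = 0.2), with overlapping groups for RPL7L1 minus RPL7. Single arrays moved both changes: RPS27L minus RPS27 was 0.11 without parental replicate 1, and RPL7L1 minus RPL7 was -0.15 without parental replicate 3.

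**Figure D4:**
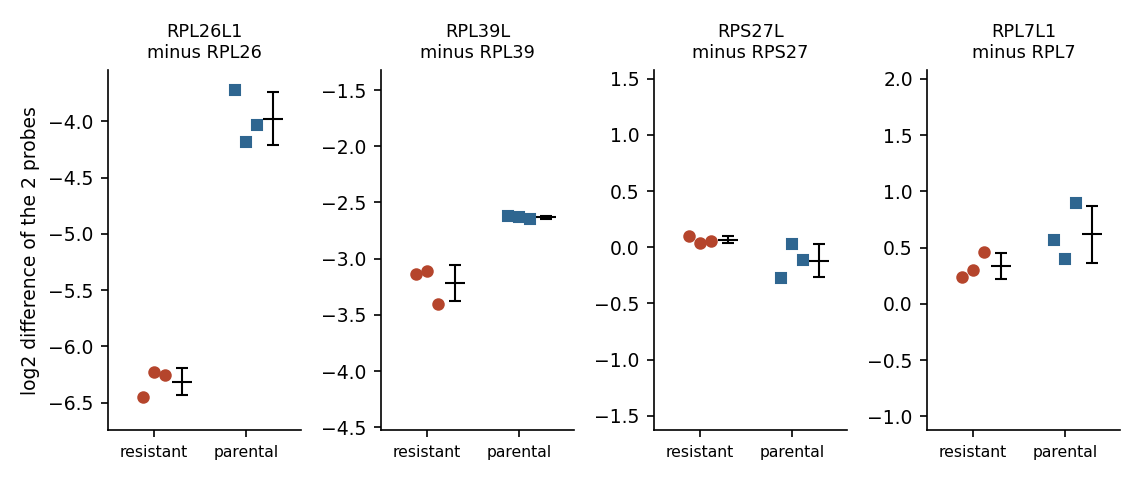
Each panel gives, for 1 copy and its partner, the log2 difference between their brightest probes on each resistant array (circles) and each parental array (squares), with mean ± SD of 3 arrays beside the points. All panels span the same range of the log2 scale, so the change of -2.34 for RPL26L1 can be set against the smaller ones.

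The 8 probes that the filter left out had intensities from 98.8 to 150 on resistant and from 110 to 146 on parental arrays. They covered 4 genes with no other probe kept, namely RPL10, RPL10L, RPL22L1 and RPL3L, and 1 further probe each of RPL36A, RPL37 and RPS27L. RPL22L1, the copy of RPL22 that rises in mouse tissue lacking RPL22, was detected on no array of either group. RPL3L, a striated muscle copy of RPL3, was likewise not detected, and RPL10L, a germ cell copy of RPL10, was detected on no resistant and 2 parental arrays. Both probes of RPL10, a core protein of the large subunit, were also detected on no array, so the absence of signal here says nothing about the amount of that mRNA.

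On chromosome 3 the median difference of 12 member probes was -0.22, with 11 of them below 0, beside a median of -0.23 over all 830 kept probes there, but 1 member probe was called (8.33%), against 49.8% of all. These members were RPL14, RPL24, RPL29, RPL32, RPL35A and RPL39L. On chromosome 12 all 7 member probes (RPL6, RPL41 and RPS26) were below 0, with a median of -0.14 beside -0.11, and 2 were called (28.6%), against 37.5%. On chromosome 19, with RPL28 and RPL36, 11 of 13 member probes were above 0, with a median of 0.06 beside 0.10, and 3 were called (23.1%), against 32.5%. On chromosome 22, where 202 of 327 kept probes were called higher and the median was 0.45, the 2 probes of RPL3, which reaches toward the peptide-joining centre, gave 0.04 (interval -0.15 to 0.24) and 0.01 (interval -0.19 to 0.21). These chromosomes are examples. The member median was 0.02 beside 0.24 on chromosome 2, 0.01 beside -0.17 on chromosome 5 and -0.01 beside -0.16 on chromosome 10. All 5 member probes were above 0 on chromosome 8 (median 0.20 beside 0.09) and on chromosome 15 (0.11 beside 0.11). Whether members follow their chromosome was not tested.

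Genes that work with the ribosomal proteins were read from their brightest probe, for which 42.3% of all genes were called. The ribosome components FAU and RPL36AL, outside the symbol rule, gave -0.07 for FAU and -0.11 for RPL36AL, neither called. Of 16 measured genes whose mRNAs carry a TOP start without coding for ribosomal proteins 5 were higher and 1 lower on their brightest probe, with a median of 0.16, beside 20.9% higher and 21.4% lower among all genes. The elongation factor subunit EEF1D had a mean of 12.2 ± 0.10 in resistant and 11.7 ± 0.06 in parental cells (SD, n = 3), a difference of 0.48 (limma adjusted p = 0.00407). The initiation factor subunits EIF3H and EIF3L rose by 0.51 and 0.31. HNRNPA1, a splicing regulator, was the gene called lower (difference -0.31, limma adjusted p = 0.0243). Its brightest probe was dimmer than those of the other measured TOP genes, at a mean of 8.43 in resistant and 8.74 in parental cells.

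Of 8 genes listed as chaperones or partners of ribosomal proteins, or relatives of these, 4 were lower and none higher, with a median of -0.34. Of all genes 21.4% were lower. PDCD2L, a relative of the RPS2 chaperone PDCD2, was at 7.89 ± 0.07 in resistant and 8.67 ± 0.03 in parental cells (SD, n = 3), a difference of -0.77 (limma adjusted p = 3.04e-04). BCCIP, which serves RPL23, fell by 0.66, LTV1, which serves RPS3 in yeast, fell by 0.42, and TSR2, the escort of RPS26, fell by 0.36. HEATR3, which carries RPL5, gave 0.06 and GRWD1, which carries RPL3, gave 0.02, neither called.

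Among 8 measured regulators of ribosome output, EIF4EBP1, the translation brake that mTORC1 releases, fell by 0.48 (limma adjusted p = 0.00506), and MAF1, a repressor of RNA polymerase III, rose by 0.54 (limma adjusted p = 0.00597). The other 6 were not called, and 20.9% of all genes were higher and 21.4% lower. These 6 were MYC, MTOR, RPTOR, RPS6KB1, RPS6KB2 and UBTF. The mitochondrial ribosomal proteins, which form the separate ribosome inside mitochondria, had 45 of 100 kept probes lower (beside 20.2% of all) and 1 higher, with a median difference of -0.22, against 7 lower and 7 higher of 116 and a median of 0.01 for the cytosolic ones. The 2 sets also differed in brightness, with a median level of 9.68 for mitochondrial and 13.5 for cytosolic probes. The 12 cytosolic probes at a level of 9 to 11 had a median difference of -0.15, beside -0.02 over all kept probes there. The difference between the 2 sets was not tested.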

How the data were processed

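Per the file headers the deposited table holds a column for each array followed by its detection p-value. The array columns were read as probe intensities. The detection columns were treated as a score, since in 3269 consecutive rows the deposited intensity and detection columns were exchanged, with the intensity as a natural log. These rows were restored (rank correlation with the deposited log2 values 1 on each array), and no member lay in them. How the authors normalised the deposited log2 values, used as an alternative, is not stated in the sources. Intensities were corrected with normexp from the detection p-values (offset 16), quantile normalised and turned into log2 values (limma 3.58.1, R 4.3.3). Probes detected (p under 0.05) on all 3 arrays of a group, 17843, were fitted with lmFit and eBayes without covariates, two-sided, and adjusted by Benjamini-Hochberg over all of them. Symbols of the array's annotation were brought up to date through gene identifiers (99.9% matched). Of all probes 30111 had 1 gene name, 8 several and 17106 were unlisted. Start-site windows came from RefSeq. A gene with several windows counted if any held a run.

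The members, the gene lists and the naming rule were chosen with earlier results of these data known. The rule names 27 genes with copies or further roles, all called members (up to 10 in each direction), and up to 4 called genes of each other list. Chromosome neighbours of RPL26L1 and other genes named in passing were chosen after values were seen. The correction, filter and fit were tested on simulated arrays. No pair of arrays was identical.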

Additional observations from a re-analysis of the deposited data

How the results depend on the processing

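All 21 alternatives kept the share of members called below that of all probes tested, from 6.45% to 25.9% against 11.2% to 45.3%. Of the 14 called member probes 6 were called in every alternative that tested them, namely RPL26L1, RPL39L, RPL6 and RPL17 (lower) and RPL8 and RPL28 (higher), and none of the followed probes reversed a call. The numbers of member probes called moved most. Without background correction 14 were higher and 14 lower, with the deposited log2 values 13 and 15, with an intensity trend 16 and 14, and with median scaling 2 and 19. With cyclic loess 12 were higher. Lower calls numbered 12 with an offset of 50, 12 with median scaling over tested probes that are not members, 13 with a common summed intensity, 11 with array weights and 4 with 1 probe per gene, where fewer members were tested. Without a detection filter, which adds undetected probes to the adjustment, 3 were higher. The member median was -0.039 under median scaling (0.11 above that of all probes), 0.090 with cyclic loess, 0.11 with scaling over other probes and 0.077 with summed intensity. Median scaling gave 2012 higher and 5580 lower among all probes. Leaving out 1 array gave 4 to 8 higher, 4 to 8 lower and medians from 0.01 to 0.02 for members, and 2554 to 3073 higher and 2822 to 3190 lower for all probes. The cause of these shifts was not tested. Same-numbered arrays did not deviate together (correlations -0.06, 0.01 and 0.06, none over 0.1), so the numbers were not taken to pair the samples. Of the 6 arrays, parental replicate 3 correlated best with its own number and the others did not. With the replicate block 6 member probes were higher and 6 lower, 10 of them among the 14. Whether signals near the array's top limit what bright members can show was not tested.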
